A study of Mus musculus with 6 samples.

Results

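The contractile and actin cytoskeleton program was followed through 35 genes of the 24346 listed in each library, chosen by name for their known place in smooth muscle or in the actin skeleton of cells in general. They were divided into 13 muscle-restricted genes (Acta2, Actg2, Tagln, Myh11, Des, Cnn1, Lmod1, Synpo2, Smtn, Synm, Kcnmb1, Myocd and Ldb3), 6 muscle-rich genes that smooth muscle makes in quantity and other cells also make (Mylk, Myl9, Tpm1, Tpm2, Cald1 and Csrp1), and 16 general actin genes (Tagln2, Myh9, Myh10, Cnn2, Cnn3, Myl6, Tpm3, Tpm4, Actn1, Actn4, Flna, Vcl, Zyx, Srf, Actb and Actg1). All 35 were listed, and 0 of them stood at 0 in any library. The genes and their classes were chosen with earlier results of these data known, so their contrast with all genes is descriptive. The RNA came from stromal cells of the mouse large intestine, sorted as live cells with Podoplanin and without CD45, CD31 or EpCAM. The control group held 3 libraries from Il10ra flox/flox mice (numbers 8, 9 and 43), and the Pdgfra-cre group held 3 from Pdgfra cre; Il10ra flox/flox mice (numbers 13, 23 and 25). Every mouse was aged 12 weeks and was given dextran sulfate sodium (DSS) at 1%, which injures the colonic epithelium. Both groups carried the floxed Il10ra alleles, and the controls had no cre. Pdgfra is a gene of fibroblasts, so recombination is expected only in cells that express it or descend from such cells. The comparison asked how RNA of these cells differed between the genotypes.

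Smooth muscle shortens when myosin II pulls on filaments of actin. Calcium and calmodulin switch on myosin light chain kinase, which phosphorylates the myosin light chain, and a phosphatase reverses this. Tropomyosin, caldesmon and calponin lie along the thin filaments, and dense bodies, intermediate filaments and focal adhesions carry the force to the cell's edge. In muscle these parts are made in tissue-specific forms whose genes are driven by serum response factor (SRF) and its partner myocardin. Nearly all cells make related general forms for shape and movement. In the colon the muscle forms are known from the muscle layers, the muscularis mucosae, mural cells of vessels and myofibroblasts under the epithelium.

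The targeted gene was barely detected. In control library 43 Il10ra had 0.418 FPKM, and the other 5 libraries listed it at 0, so the deletion could not be checked. Between 11188 and 11358 genes per library reached 1 FPKM. Read numbers were not given, and the most frequent low values put 1 read per kilobase of transcript at roughly 0.111 to 0.135 FPKM. General fibroblast genes were abundant (the 8 markers summed to 16147 to 19480 FPKM in the controls and 19558 to 19915 in Pdgfra-cre). Of 8 endothelial markers 7 stayed below 1 FPKM in every library, with Cdh5 at 0 in all 6. Pdgfra-cre library 23 stood apart, correlating least with the rest (mean correlation 0.967, and 0.974 to 0.979 for the others). It also had the highest sums for neutrophil markers (180 FPKM, against 1.36 to 18.05 in the other 5) and for mesothelial markers (54.8 FPKM). Mesothelial markers were also higher in the other Pdgfra-cre libraries, where they summed to 17.2 FPKM (library 13) and 10.998 FPKM (library 25), while the controls had 2.05 to 5.87. Of the 5 mesothelial markers 4 were higher without overlap. Among the 4 that were tested 3 were, against 8.07% of all genes tested. The labels number the mice but say nothing more on litter, cage or day of collection.

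The muscle-restricted and muscle-rich genes mostly had lower values in the Pdgfra-cre libraries, and most general actin genes lay near the control level. In 11 of 13 muscle-restricted genes and 6 of 6 muscle-rich genes, every Pdgfra-cre value lay below every control value, a pattern found in 8.29% of all genes tested. The same held for 5 of 16 general actin genes (Actn1, Cnn2, Flna, Myl6 and Vcl), while 1 (Tpm3) lay higher without overlap, against 8.07% of all genes. The summed level of the muscle-restricted genes was 836 ± 16.5 FPKM in the controls (SD, n = 3) and 384 ± 161 FPKM in the Pdgfra-cre group (SD, n = 3). The 3 controls lay close together at 823 to 855 FPKM, and the Pdgfra-cre libraries spread out from 199 in library 23 through 453 in library 13 to 499 in library 25. The muscle-rich genes summed to 1264 ± 68.5 and 788 ± 153 FPKM, and the general actin genes to 3985 ± 216 and 3764 ± 90.6. These are bulk samples, in which fewer cells of a type and less RNA per cell cannot be told apart.

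None of these differences passed the test across all genes. With limma, 0 of 34 tested members had an adjusted p under 0.05, as did 0 of 11429 genes (0%). At an unadjusted p under 0.05 there were 19 members, all lower: 10 muscle-restricted, 6 muscle-rich and 3 general, against 5.49% of all genes in that direction and 5.47% in the other. The median log2 fold change (Pdgfra-cre minus control, on log2(FPKM + 1)) was -1.07 over the 12 tested muscle-restricted genes (all 12 below 0), -0.78 over the 6 muscle-rich genes and -0.16 over the 16 general genes. Over all genes tested it was 0.0012, with 49.7% of genes below 0, as against 30 of 34 members. Lmod1 and Myocd met the filter of 1 FPKM in 3 libraries through the controls alone, which favors lower values in Pdgfra-cre, and Ldb3 did not meet it. With no filter, the median over all 13 muscle-restricted genes was -1.04. Fold changes on this scale understate differences of genes with a low FPKM.

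**Figure D1:**
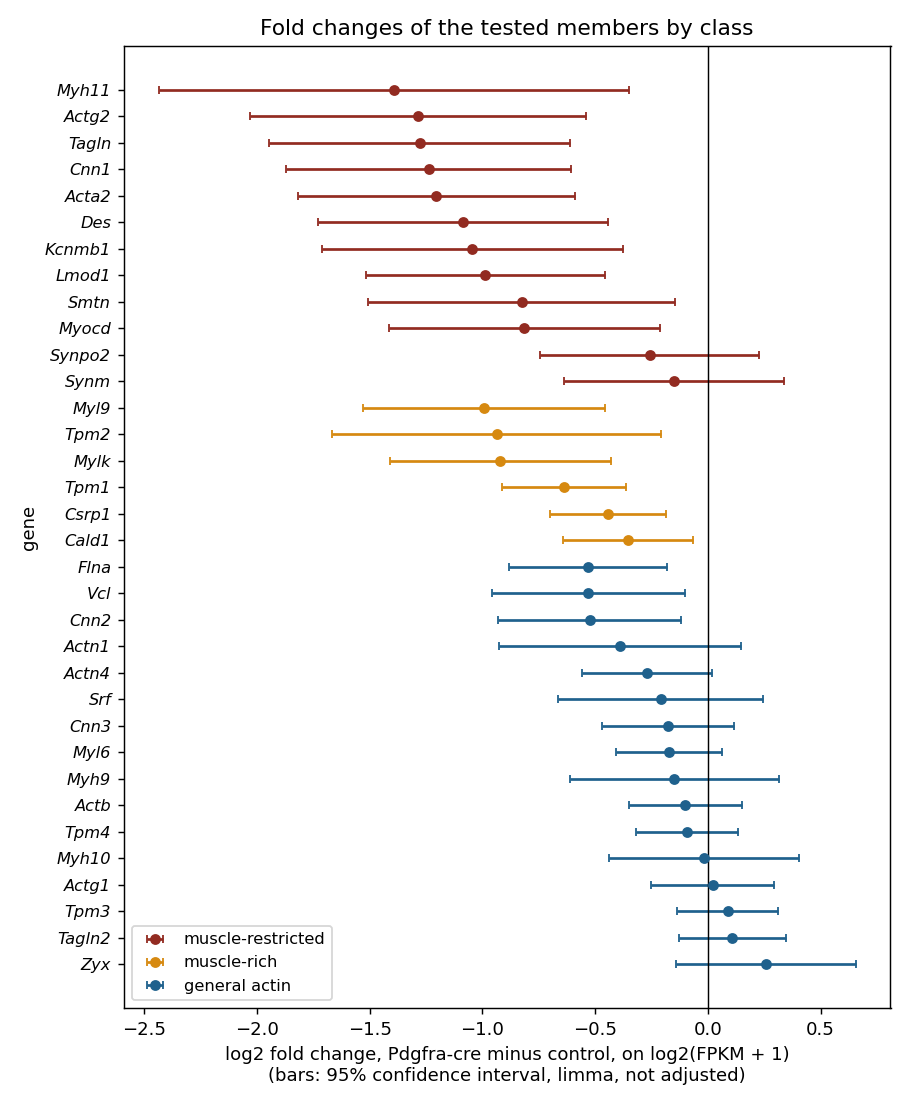
Log2 fold changes of the 34 tested members (x axis, Pdgfra-cre minus control on log2(FPKM + 1)), 1 gene per row and 1 colour per class, with 95% confidence intervals from limma that are not adjusted for the number of genes. The muscle-restricted genes reach from -1.39 to -0.15, the muscle-rich genes from -0.99 to -0.35 and the general actin genes from -0.53 to 0.26.

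The actins form the thin filaments, and the smooth muscle actins were lower while the general ones were not. Acta2, which encodes alpha smooth muscle actin (chromosome 19, 34241090 to 34255590), had 299, 299 and 352 FPKM in control libraries 8, 9 and 43. It had 169, 80.2 and 188 FPKM in Pdgfra-cre libraries 13, 23 and 25, so all 3 lay below the lowest control. Actg2, the gamma actin of enteric smooth muscle (chromosome 6, 83512905 to 83536265), had 150, 127 and 105 FPKM in the controls and 64.7, 26.9 and 76.1 in Pdgfra-cre, again without overlap. Control means were 2.18 times the Pdgfra-cre mean for Acta2 and 2.28 times for Actg2. The log2 fold changes were -1.20 ± 0.27 and -1.28 ± 0.33 (SE), with adjusted p of 0.169 and 0.209.

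Actg1, the general gamma actin (chromosome 11, 120345690 to 120348542), was the most abundant member, at 1437, 1178 and 1129 FPKM in the controls and 1293, 1257 and 1232 in Pdgfra-cre. The groups overlapped, the log2 fold change was 0.02 with a 95% confidence interval of -0.25 to 0.29, and its sign turned under several alternatives (-0.11 under quantile normalization). Actb, the general beta actin, had 123, 107 and 112 FPKM and 101, 115 and 103 FPKM, with an interval of -0.35 to 0.15. These intervals do not reach the estimates of the smooth muscle actins, but they leave room for smaller differences. Of all stretches of 50 bases in the Actg1 transcripts 37.4% also occur in transcripts of other annotated genes, so its level depends on how such reads were assigned. The share was 9.12% for Actb, 0.326% for Acta2 and 0% for Actg2. Within each library the ratio of Acta2 to Actg1 (both FPKM, thus per length) was 0.208, 0.254 and 0.312 in the controls and 0.131, 0.0638 and 0.152 in Pdgfra-cre. The ratio of Acta2 to Actg2 overlapped between groups (1.99 to 3.36 in the controls and 2.46 to 2.99 in Pdgfra-cre).

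**Figure D2:**
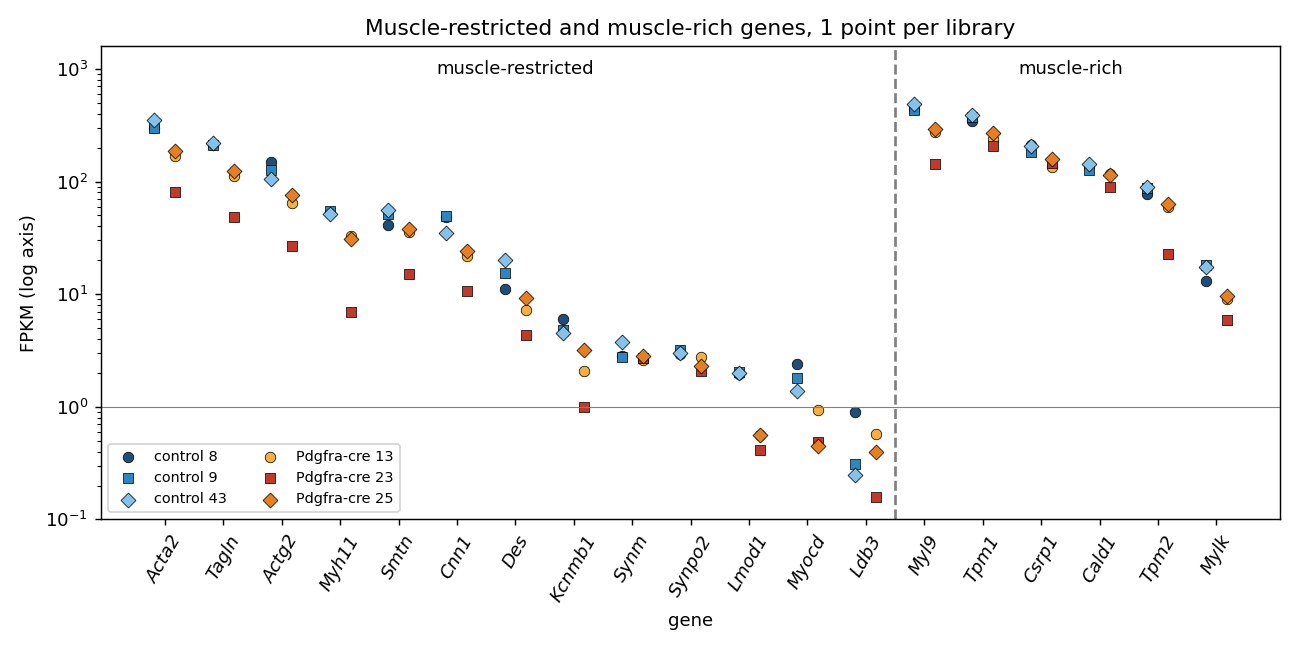
FPKM (log axis) of the 13 muscle-restricted genes (left of the dashed line) and the 6 muscle-rich genes (right), with 1 point per library, controls in blue and Pdgfra-cre in orange and red, and a line at 1 FPKM. In 17 of the 19 genes the 3 Pdgfra-cre points lie below all 3 control points, and library 23 (red squares) is the lowest of the 6 in 16.

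Myosin II is the motor. Relative to its mean, its smooth muscle heavy chain gene varied more between the Pdgfra-cre libraries than any other tested muscle-restricted gene. Myh11 (chromosome 16, 14194535 to 14291372) had 52.4, 54.4 and 51.7 FPKM in controls, a narrow range. Pdgfra-cre libraries 13 and 25 had 33.0 and 30.9 FPKM, and library 23 had 6.97, which was 0.218 times the mean of the other 2. The log2 fold change was -1.39 ± 0.46 (SE; adjusted p = 0.295) and -0.71 without library 23. The nonmuscle heavy chains overlapped between groups, with Myh9 at 4.89 to 6.62 FPKM in the controls and 4.28 to 5.62 in Pdgfra-cre, and Myh10 at 5.93 to 6.72 and 5.66 to 6.93. The direction for Myh10 turned under 4 alternatives. The ratio of Myh11 to Myh9 was 10.7, 9.79 and 7.80 in the controls and 6.36, 1.24 and 7.21 in Pdgfra-cre, without overlap.

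Of the light chain genes, Myl9 was lower by more than Myl6. Myl9, the regulatory light chain of smooth muscle myosin (chromosome 2, 156775420 to 156781658), had 440, 433 and 492 FPKM in the controls and 278, 144 and 294 in Pdgfra-cre. Its log2 fold change was -0.99 ± 0.24 (SE; adjusted p = 0.189). Myl6, the essential light chain that muscle and nonmuscle myosins share, had 889, 861 and 775 FPKM and 774, 737 and 726 FPKM. Its groups were separated by less than 1 FPKM, between control library 43 and Pdgfra-cre library 13, and the log2 fold change was -0.17 ± 0.10 (SE; adjusted p = 0.615). Mylk, the kinase that phosphorylates the regulatory light chain, had 13.2, 18.1 and 17.5 FPKM in the controls and 9.03, 5.92 and 9.64 in Pdgfra-cre (adjusted p = 0.185).

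The tropomyosins wind along actin filaments, and Tpm1 and Tpm2 were lower without overlap while Tpm3 and Tpm4 were not. Tpm1 (chromosome 9, 67022590 to 67049406) had the lowest adjusted p of the 34 members (0.156), at 347, 373 and 391 FPKM in the controls and 241, 207 and 268 in Pdgfra-cre, with a log2 fold change of -0.64 ± 0.12 (SE). Tpm2 had 77.6, 87.7 and 90.0 FPKM in the controls and 59.1, 22.7 and 62.7 in Pdgfra-cre, and library 23 lay far below the other 2. Tpm3 was slightly higher, at 154 to 165 FPKM in the controls and 168 to 176 in Pdgfra-cre, with a log2 fold change of 0.09 ± 0.10 (SE; adjusted p = 0.823) that turned to -0.0089 after rescaling to TPM. Of its stretches of 50 bases, 23.2% also occur in another gene, Tpm3-rs7. Tpm4 overlapped, at 420 to 435 and 379 to 426 FPKM. The ratio of Tpm1 to Tpm3 was 2.26, 2.26 and 2.45 in the controls and 1.44, 1.18 and 1.62 in Pdgfra-cre. All these are sums over many transcripts, from which the muscle and nonmuscle splice forms of Tpm1 cannot be told apart.

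Among the other thin-filament genes, those of transgelin and leiomodin were lower without overlap. Tagln, which encodes transgelin (SM22), an actin cross-linker of smooth muscle (chromosome 9, 45929619 to 45936058), had 210, 212 and 221 FPKM in the controls and 113, 48.3 and 123 in Pdgfra-cre (log2 fold change -1.28 ± 0.30 SE, adjusted p = 0.177). Its general relative Tagln2 had 320 to 347 FPKM in the controls and 327 to 375 in Pdgfra-cre. Lmod1, the actin nucleator leiomodin (chromosome 1, 135324807 to 135368065), had 1.96, 2.06 and 1.98 FPKM in the controls and 0.563, 0.415 and 0.566 in Pdgfra-cre. That is a ratio of means of 3.88, on roughly 60.2 to 66.9 reads per control library and at most 20.1 per Pdgfra-cre library.

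The calponins restrain myosin on actin, and both Cnn1 and Cnn2 were lower without overlap. Cnn1, the smooth muscle form (chromosome 9, 22099216 to 22109630), had 48.2, 49.0 and 34.6 FPKM in the controls and 21.8, 10.6 and 24.2 in Pdgfra-cre (log2 fold change -1.24 ± 0.28 SE, adjusted p = 0.169). Cnn2, a form also found in nonmuscle cells, had 97.4, 101 and 120 FPKM and 71.6, 57.4 and 95.005 FPKM, a smaller difference of -0.52 ± 0.18 (SE; adjusted p = 0.311). The ratio of Cnn1 to Cnn2 overlapped between groups, at 0.495, 0.487 and 0.288 in the controls and 0.304, 0.185 and 0.255 in Pdgfra-cre. Cnn3 overlapped, at 300 to 365 and 272 to 343 FPKM. Cald1, caldesmon, was lower without overlap by a small difference, at 127 to 144 FPKM in the controls and 90.4 to 116 in Pdgfra-cre. Smtn, smoothelin of the contractile filaments, had 41.4 to 55.6 FPKM and 15.1 to 37.7 FPKM (adjusted p = 0.344).

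**Figure D3:**
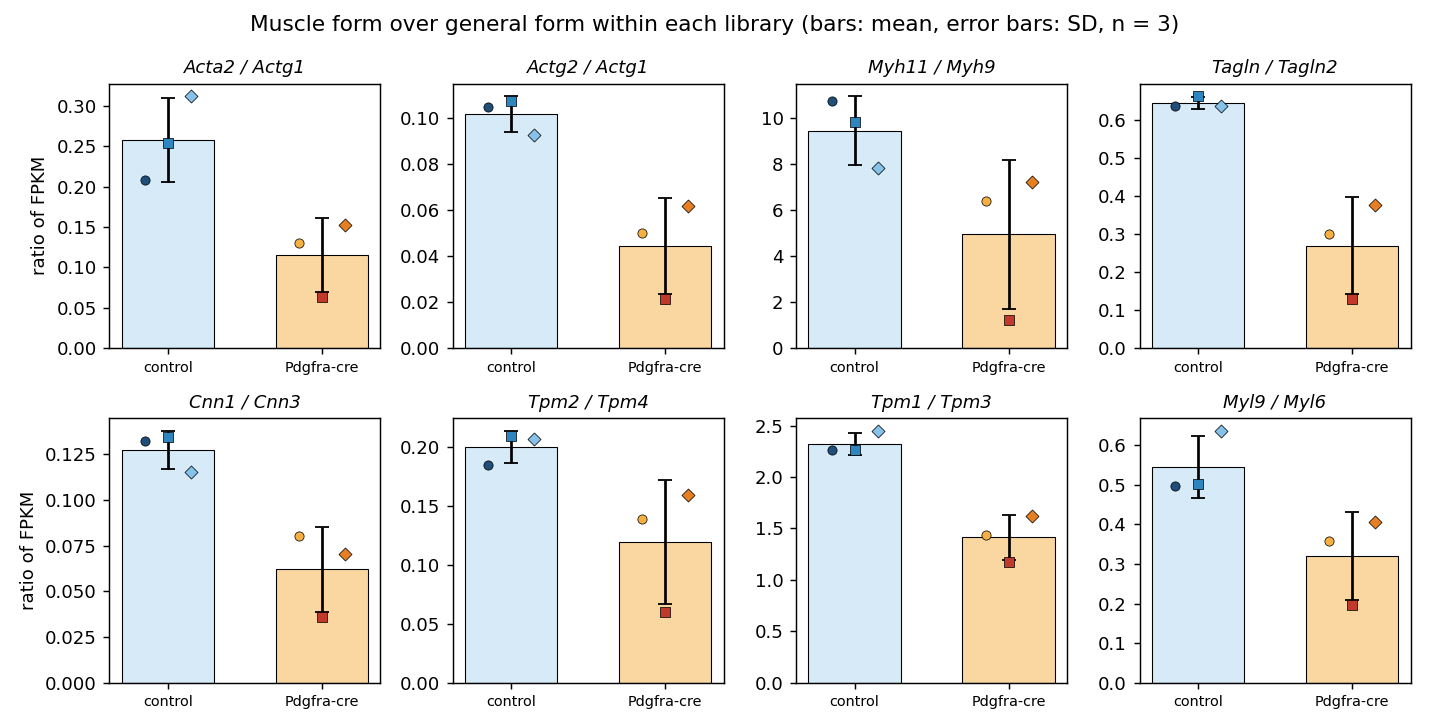
Ratio of the FPKM of a muscle-restricted or muscle-rich gene to that of a related general actin gene within each library, for 8 pairs, with bars for the mean, error bars for the SD (n = 3) and points for libraries (controls in blue, Pdgfra-cre in orange, library 23 as a red square). All 3 Pdgfra-cre ratios lie below all 3 control ratios in each of the 8 pairs, for example 0.129 to 0.377 against 0.636 to 0.663 for Tagln over Tagln2. The muscle gene of each pair was itself lower without overlap, so the ratios largely show that separation again. No share over all pairs of genes was computed. A further pair that is not drawn, Cnn1 over Cnn2, overlapped.

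Intermediate filaments and anchors were less uniform. Des, which encodes desmin of muscle (chromosome 1, 75360329 to 75368579), had 11.05, 15.6 and 20.2 FPKM in the controls and 7.21, 4.30 and 9.16 in Pdgfra-cre (log2 fold change -1.09 ± 0.29 SE, adjusted p = 0.210). Synm, synemin, which joins desmin filaments, overlapped, with 2.84, 2.79 and 3.73 FPKM and 2.60, 2.69 and 2.81 FPKM. Synpo2, the dense-body and Z-disc protein myopodin, did not overlap but differed little, at 2.92 to 3.18 and 2.096 to 2.76 FPKM (log2 fold change -0.26 ± 0.22 SE, adjusted p = 0.740). Csrp1, a LIM protein of smooth muscle, was lower in all 3 Pdgfra-cre libraries, at 182 to 211 and 136 to 160 FPKM. Here library 13 was the lowest and library 23 was not set apart. Ldb3, a Z-disc protein of striated muscle, stayed below 1 FPKM in all 6 libraries (0.250 to 0.901 and 0.160 to 0.579), and the exact permutation test (two-sided) had p = 0.7, with 0.1 the smallest p that 3 against 3 allow.

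Among the general anchors, the filamin and vinculin genes were lower and zyxin was not. Flna, which cross-links actin and binds integrins (chromosome X, 74223461 to 74249820), had 137, 145 and 159 FPKM in the controls and 111, 79.7 and 118 in Pdgfra-cre (log2 fold change -0.53 ± 0.16 SE, adjusted p = 0.247). Vcl, vinculin of focal adhesions, had 57.8, 46.8 and 41.4 FPKM and 41.2, 25.9 and 33.9 FPKM, where the groups were separated by less than 1 FPKM. Actn1 had 1.87 to 2.69 FPKM in the controls and 1.28 to 1.83 in Pdgfra-cre. Actn4, the other nonmuscle alpha-actinin, overlapped, at 127 to 140 and 95.5 to 128 FPKM. Zyx had 62.5 to 70.0 FPKM in the controls and 86.7, 58.1 and 94.1 in Pdgfra-cre, so library 23 lay below the controls and the other 2 above them. The general class therefore held both near-level members and a few that were lower with the muscle genes.

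The channel subunit and the factors were scarce. Kcnmb1, the smooth muscle beta subunit of the large-conductance potassium channel, had 5.99, 4.78 and 4.56 FPKM in the controls and 2.06, 0.987 and 3.21 in Pdgfra-cre (log2 fold change -1.04 ± 0.30 SE, adjusted p = 0.243). Myocd, which encodes myocardin (chromosome 11, 65176561 to 65269989), had 2.41, 1.81 and 1.38 FPKM and 0.943, 0.484 and 0.452 FPKM, a ratio of means of 2.98. Its log2 fold change of -0.81 ± 0.27 (SE; adjusted p = 0.287) ran from -1.47 to -0.29 between pseudocounts of 0.1 and 5. Srf had 4.82, 4.65 and 4.70 FPKM and 3.71, 4.65 and 3.55 FPKM, with a slight overlap through library 23 (log2 fold change -0.21 ± 0.20 SE, adjusted p = 0.784).

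SRF binds the CArG box, and promoter sequence was searched for it because the muscle genes shared their direction. RefSeq promoters (GRCm38.p6) were found for 30 of the 35 members. In the 250 bases before the start, an exact CArG box, whose pattern reads the same on both strands, occurred in 1 of 9 muscle-restricted, 1 of 6 muscle-rich and 5 of 15 general actin genes, against 1.62% of 27025 genes. No other motif was searched. The 6 windows below hold a box outside annotated exons, shown 5′ to 3′ on the gene's strand with the box in capitals, for 3 genes that were lower without overlap (Myl9, Cnn2 and Vcl) and 3 that overlapped (Actg1, Srf and Ldb3).
Myl9 (chr2:156775248-156775367, plus strand): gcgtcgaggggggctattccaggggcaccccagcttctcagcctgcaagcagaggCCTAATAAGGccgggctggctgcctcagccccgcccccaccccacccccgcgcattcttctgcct
Cnn2 (chr10:79988489-79988583, plus strand): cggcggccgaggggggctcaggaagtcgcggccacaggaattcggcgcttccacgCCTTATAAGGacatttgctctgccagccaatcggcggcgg
Vcl (chr14:20929148-20929235, plus strand): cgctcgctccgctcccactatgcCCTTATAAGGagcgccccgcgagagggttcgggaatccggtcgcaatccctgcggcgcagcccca
Actg1 (chr11:120348543-120348640, minus strand): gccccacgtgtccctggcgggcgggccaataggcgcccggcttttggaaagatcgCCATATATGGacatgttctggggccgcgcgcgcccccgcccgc
Srf (chr17:46556176-46556299, minus strand): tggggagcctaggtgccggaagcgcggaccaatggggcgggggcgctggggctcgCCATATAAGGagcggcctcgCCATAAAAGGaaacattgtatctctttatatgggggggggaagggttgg
Ldb3 (chr14:34588683-34588771, minus strand): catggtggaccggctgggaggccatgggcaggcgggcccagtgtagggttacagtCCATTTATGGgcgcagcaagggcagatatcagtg
The box began 161 bases before the start in Myl9, 56 in Cnn2, 227 in Vcl and 90 in Actg1, and Srf held 2, at 82 and 62. RefSeq gives Ldb3 a pair of starts, 35 and 109 bases from its box. Cnn2 and Vcl carried the same box letters. Genes with a box were found among members that were lower and among members that were not (1 of 9 muscle-restricted and 5 of 15 general actin genes). Whether SRF had a part in the differences was not tested. The box of Myl6, a general gene that was lower without overlap, lay within an annotated exon. A promoter was found for 9 of the 13 muscle-restricted genes, and the one with a box was Ldb3, which stayed below 1 FPKM. A match is a description of letters, and its absence in a window (Acta2, for example) says nothing of the factor.

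Library 23 set much of the spread within the Pdgfra-cre group, and the muscle genes were lower without it as well. Over the 35 members, library 23 was the lowest of all 6 in 22, against 24% of all genes tested. These were 11 of 13 muscle-restricted, 5 of 6 muscle-rich and 6 of 16 general genes. The median muscle-restricted gene stood at 0.253 of the control mean in library 23, at 0.527 in library 13 and at 0.592 in library 25. For the general class these medians were 0.892, 0.899 and 0.914. Without library 23 the 2 remaining Pdgfra-cre libraries lay below every control in 11 of 13 muscle-restricted and 6 of 6 muscle-rich genes, against 12.6% of all genes. Leaving out a library cannot undo a separation, so these counts could not be lower than with all libraries. The muscle-restricted median without library 23 was -0.79 and the muscle-rich median -0.51, and 0 members passed (lowest adjusted p 0.0781, after 0.156 with all libraries). In library 23 the neutrophil, epithelial, leukocyte and mesothelial sums were the highest, and mesothelial sums were above every control in all 3 Pdgfra-cre libraries, as given above. The sum of 8 markers of CD34 adventitial fibroblasts was 9335 FPKM there, against 5834 and 5306 in the other Pdgfra-cre libraries and 3507 to 4541 in controls. The sum of 10 markers of PDGFRA-high subepithelial fibroblasts was lowest there, at 288 FPKM, against 420 and 408 in the other 2 and 513 to 687 in controls. The part of these cell types in the muscle gene values was not tested.

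**Figure D4:**
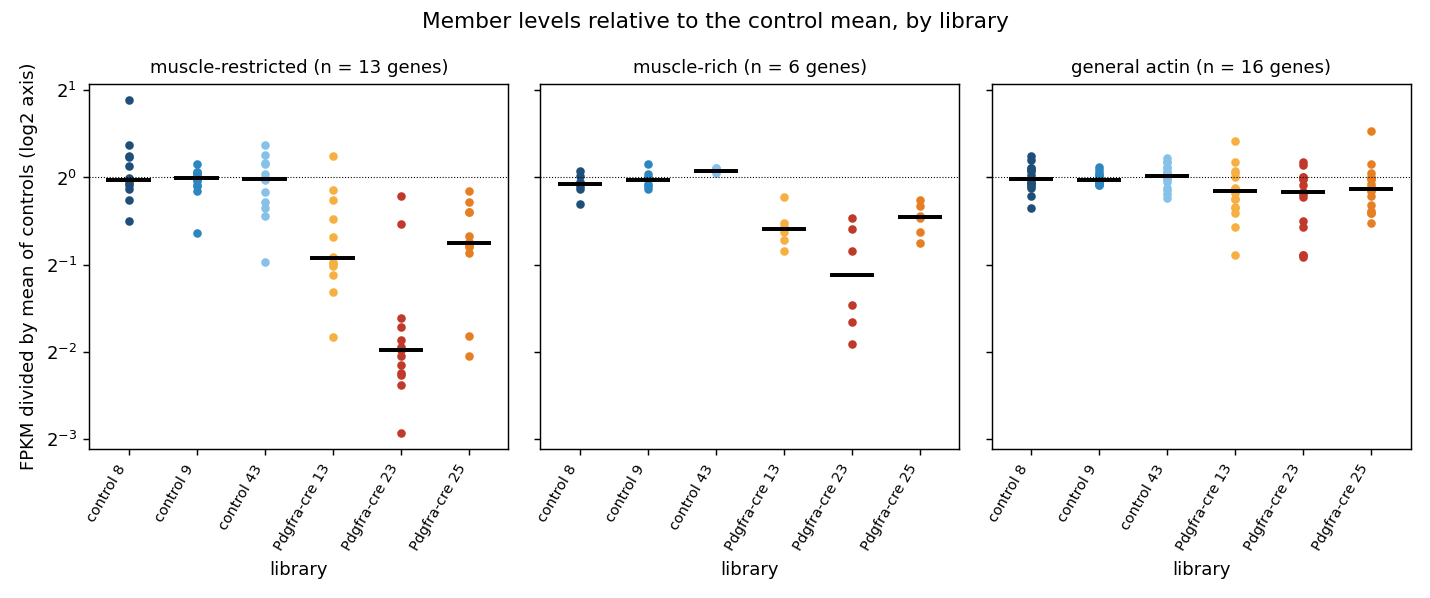
FPKM of each member divided by its mean over the 3 controls (log2 axis), by library, in 3 panels for the 13 muscle-restricted, 6 muscle-rich and 16 general actin genes, with 1 point per gene and a black bar at the class median. The muscle-restricted medians are 0.527, 0.253 and 0.592 in libraries 13, 23 and 25, while the general medians stay between 0.892 and 0.914.

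Mural cells also make smooth muscle actin. Of 10 pericyte markers in the files 7 were tested, of which 5 were below 0, with a median log2 fold change of -0.31, and 3 (Notch3, Higd1b and Cox4i2) stayed below 1 FPKM in all 6 libraries. The summed pericyte level was 91.0 to 101 FPKM in the controls and 60.2 to 79.6 in Pdgfra-cre, and in 2 of the 10, Kcnj8 and Mcam, every Pdgfra-cre value lay below every control, against 8.29% of all genes. Markers of interstitial cells of Cajal summed to 18.3 to 24.0 and 16.9 to 31.3 FPKM, so the groups overlapped. Of 7 skeletal muscle markers 5 stayed below 1 FPKM, with Myh1, Myh4 and Myl1 at 0 in all 6. The part of these cells in the muscle gene values was not tested.

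Other genes of the contractile apparatus, taken from 6 further lists, were compared with the same fit, and 0 passed after adjustment. The other smooth muscle cytoskeleton genes were mostly lower, with 14 of 18 tested below 0 and a median log2 fold change of -0.44. Pdlim3, a LIM protein that binds alpha-actinin, had 89.7, 119 and 154 FPKM in the controls and 54.4, 29.0 and 67.1 in Pdgfra-cre (log2 fold change -1.30, adjusted p = 0.169). The integrin subunit gene Itga8 had means of 3.77 ± 1.10 and 1.04 ± 0.550 FPKM, and Slmap, a membrane-associated protein gene, 14.8 ± 2.50 and 8.46 ± 1.14 (SD, n = 3 each). The most abundant of the list went the other way: Hspb8, a small heat shock protein gene, had 108 to 116 FPKM in the controls and 129 to 175 in Pdgfra-cre (adjusted p = 0.247).

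The calcium genes of excitable muscle were sparse, and Casq2 and Trpc6 were lower. Of 9 tested, 8 were below 0, with a median log2 fold change of -0.14. Among these 9, 2 were lower without overlap, against 8.29% of all genes, and 1 was higher, against 8.07%. Casq2, which encodes the calcium store protein calsequestrin, had 23.3, 28.2 and 51.8 FPKM in the controls and 11.4, 1.48 and 5.85 in Pdgfra-cre, a log2 fold change of -2.49 (adjusted p = 0.161). Trpc6, a cation channel gene, had 4.13 ± 1.82 and 0.952 ± 0.880 FPKM (SD, n = 3 each). Atp2a2, the calcium pump gene that many cells use, was the most abundant, at 113 ± 11.3 and 130 ± 6.64 FPKM. Of the 14 genes 5 were not tested, among them Cacna1c, the pore of the muscle calcium channel, at 0.0806 to 0.209 FPKM, and Ryr2, listed at 0 in 5 of 6 libraries. Of the striated actins, Actc1 had 3.17, 4.68 and 9.61 FPKM in the controls and 1.69, 0 and 0.934 in Pdgfra-cre, and Acta1 was listed at 0 in 4 libraries.

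Targets and cofactors of SRF were mixed, with 8 of 15 below 0 and a median of -0.017, but the 5 genes without overlap were all lower (5 of 15, against 8.29% of all genes), and the same number had an unadjusted p under 0.05. Fhl2, a LIM cofactor, had 140 ± 24.97 FPKM in the controls and 77.7 ± 13.9 in Pdgfra-cre (adjusted p = 0.156), Tgfb1i1 (Hic-5, a focal adhesion cofactor) 33.5 ± 3.43 and 20.4 ± 4.19, and Ctgf 222 ± 61.4 and 136 ± 10.2 (SD, n = 3 each). All 3 were lower without overlap, as were Filip1l and Nexn, an actin-binding protein gene (adjusted p = 0.235 and 0.254). The immediate-early factor gene Egr1 was near level, at 2341 ± 210 and 2474 ± 51.5 FPKM. The cofactor genes Mkl1 (2.36 to 3.88 and 2.59 to 4.17 FPKM) and Mkl2 (3.11 to 6.19 and 3.37 to 4.24 FPKM) overlapped.

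The actin turnover machinery that all cells use showed no common direction. The actin turnover list had 15 of 36 below 0 and a median of 0.033. Gsn, which encodes the filament-severing gelsolin, was its most abundant gene, at 9093 ± 1386 and 11237 ± 451 FPKM. Dstn, destrin, was lower (354 ± 39.2 and 265 ± 19.0 FPKM) and the membrane linker gene Ezr higher (17.4 ± 2.23 and 28.0 ± 6.18), also without overlap. Of the 36 tested genes of the list, 4 were lower without overlap, against 8.29% of all genes, and 4 higher, against 8.07%. The focal adhesion list, which shares Tgfb1i1 with the SRF list, had 10 of 15 below 0 and a median of -0.19. In that list 8 of 15 genes were lower without overlap, against 8.29% of all genes, and 1 was higher, against 8.07%. Its most abundant gene Itgb1 had 348 ± 11.9 and 305 ± 21.8 FPKM, Lims1 35.7 ± 3.51 and 25.1 ± 2.58, and Tes 13.4 ± 1.30 and 6.43 ± 4.10 (SD, n = 3 each).

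**Figure D5:**
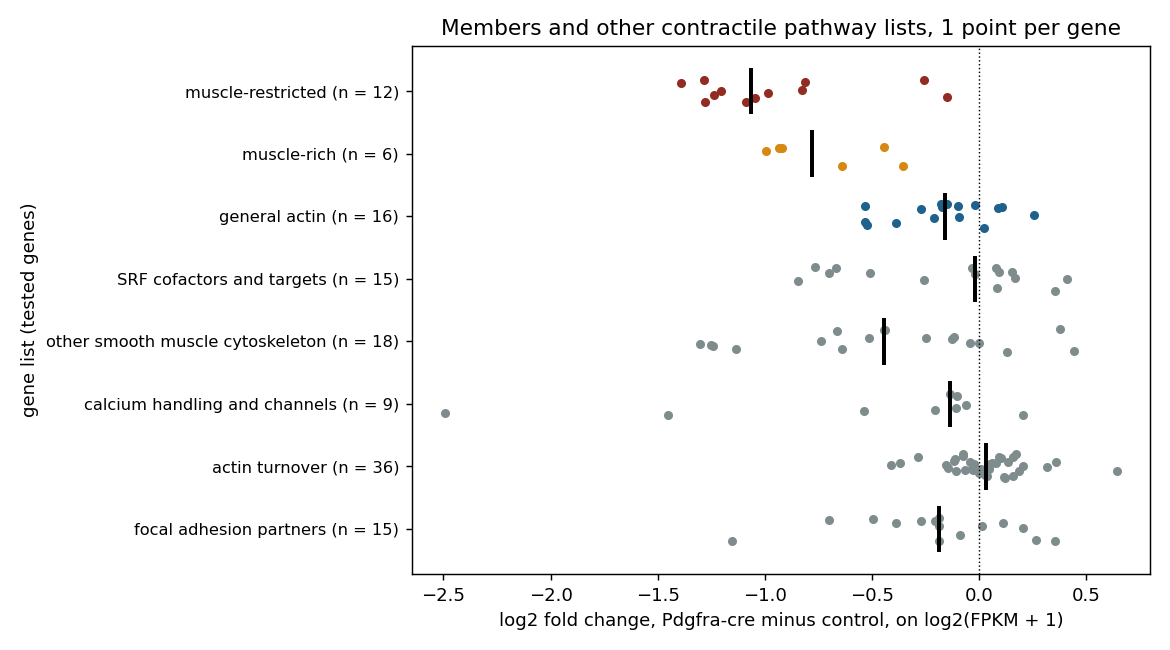
Log2 fold changes (x axis, Pdgfra-cre minus control on log2(FPKM + 1)) of the tested genes of the 3 member classes and of 5 other lists of the contractile pathway, 1 point per gene, with a black bar at each list's median and a dotted line at the median of all genes tested. The medians are -1.07 for muscle-restricted genes, -0.44 for the other smooth muscle cytoskeleton and 0.033 for actin turnover.

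Read assignment touches few of the muscle genes. Of the 35 members, 29 share under 1% of their 50-base stretches with any other annotated gene. The exceptions are all in the general class: Actg1, Actb and Tpm3, given above, with Tpm4 (11.65%), Cnn3 (10.3%) and Myl6 (8.38%). Exons of 11 members overlap those of a gene on the other strand, among them Tagln, Des, Smtn, Synm and Mylk. The libraries keep no strand, so reads of such partners cannot be told apart from those of the member.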

How the data were processed

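The authors deposited 1 table of FPKM per gene for each library, a fragment count scaled by transcript length and library size. Per the submitters' processing notes, TopHat2 2.1.1, Bowtie2 2.2.8, SAMtools 0.1.18, Cuffdiff 2.2.1 and the mm10 genome were used. As for annotation release, options and read numbers, these are not given in the sources used here. The library route (full-length cDNA and tagmentation) keeps no strand.

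Members were read by symbol. The members, classes and lists were chosen with earlier results of these data known. R 4.3.3 and limma 3.58.1 were applied to log2(FPKM + 1) with a variance trend, over the 11429 genes that reached 1 FPKM in 3 or more libraries. P-values were adjusted by Benjamini-Hochberg over all of them, with a threshold of 0.05, and every adjusted p is limma's unless stated. The fit was tested on simulated data. Members are all named, and of each further pathway list the 3 genes with the lowest unadjusted p and the most abundant gene. Other genes named from the pathway and marker lists were chosen after their values were seen. The 16 alternatives covered pseudocount, filter, scaling, limma settings and each library left out. Locations are from GENCODE M21 (mm10), and promoter sequences from RefSeq (GRCm38.p6). Results of 1 further pathway list and 1 marker gene are not reported here.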

Additional observations from a re-analysis of the deposited data

How the results depend on the processing

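Over 16 alternatives, 0 members passed in any, and the lowest adjusted p of a member was 0.0742 (Tpm1, without Pdgfra-cre library 25; its range was 0.0742 to 0.379). All 283 values of muscle-restricted and muscle-rich genes lay below 0. For the 17 of these genes without overlap, only a change of scaling could have turned the sign. Other pseudocounts, filters, limma settings or a library left out could not. The count of all genes called was 0 in 13 alternatives and ran from 0 to 33 with 1 library left out (2 without control library 43, 3 without Pdgfra-cre library 13 and 33 without Pdgfra-cre library 25). The general actin median moved from -0.16 to -0.11 with a pseudocount of 5 and to -0.26 after rescaling to TPM, which moved the median of all genes to -0.091. The muscle-rich median ran from -0.88 to -0.51 with 1 library left out, the last without library 23. Signs turned for 3 general genes near 0: Actg1 (-0.11 under quantile normalization, -0.075 after rescaling to TPM, -0.033 with array weights, and -0.046 to 0.13 with 1 library left out), Tpm3 (-0.0089 after rescaling to TPM) and Myh10 (0.013 with array weights, and -0.094 to 0.034 with 1 library left out). The cause was not tested. No paired analysis was possible because the groups share no replicate number. Members without overlap numbered 23 to 28, a count that leaving out a library cannot lower and that pseudocount, filter and limma settings do not alter.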

Other observations

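Of 5 markers of interstitial cells of Cajal, 3 were below 0, the median log2 fold change was -0.0072, and 1 was without overlap, against 8.07% of all genes that were higher in that way. That gene, the kinase gene Prkcq, was higher, at 0.781 to 1.48 FPKM in the controls and 2.03 to 3.05 in Pdgfra-cre, while Kit, the defining receptor of these cells, overlapped (0.809 to 7.04 and 4.01 to 6.86 FPKM).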
